A study of Mus musculus with 6 samples.

Results

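The genes described here are 34 histone-modifying enzymes of the mouse: the methyltransferases of histone H3 with the core subunits of the Polycomb repressive complex PRC2, the lysine demethylases, the deacetylases and the acetyltransferases. They were listed by symbol, not by a cutoff on any measured value, though with earlier results of these data known. The GENCODE M21 annotation matched them to 34 of the 55487 genes of the deposited table, of which 31 passed the filter on low counts. Their transcripts were measured by RNA sequencing in 3 control and 3 metformin libraries of mouse oocytes matured in vitro to metaphase II. Ovaries were stimulated with 10 IU of pregnant mare gonadotropin (PMSG) and punctured 46 to 48 h afterwards; oocytes at the germinal vesicle stage were freed of cumulus cells and matured for 16 h in drops of M16 medium. The metformin oocytes were cultured with the drug, an antidiabetic biguanide that acts on mitochondrial energy metabolism, and the control oocytes without it. The culture protocol lists 10, 20 and 50 μM metformin and the labels do not say which of these was sequenced. The series title names aged mice, and the labels give no strain, genotype or age for either group. The number of oocytes per library is not stated.

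Histone methyltransferases and acetyltransferases write marks on the tails and core of the histones, and demethylases and deacetylases remove them. Methylation of H3K9 and H3K27 goes with silent chromatin, methylation of H3K4 with promoters and enhancers, methylation of H3K36 and H3K79 with transcribed genes, and acetylation with open chromatin. A fully grown oocyte is transcriptionally silent, so the transcripts measured at metaphase II are stored maternal RNA that was made during growth. They are the supply from which the egg and the early embryo translate these enzymes until the embryonic genome is switched on.

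Total counts ranged from 8622281 to 10588292 per library. The 10 oocyte markers summed to between 30640 and 42550 CPM, a unit in which read numbers are divided by library sizes corrected with TMM factors. Of 12 cumulus and granulosa cell markers, Amh, Foxl2 and Ptx3 had no read in any library, and 7 stayed under 1 CPM everywhere. The list sum of 1179 to 1669 CPM was mostly Serpine2. Cyp19a1 stood at 35.95 to 48.04 CPM and Nr5a2 at 16.17 to 21.26 CPM over the libraries. The 12 theca, stroma and endothelium markers summed to between 31.7 and 43.8 CPM, with Cyp17a1 at 0. Most of that sum was Pecam1, at 23.54 to 34.72 CPM. The 10 blood and immune markers stood at 33.3 CPM in control 1, where haemoglobin genes made up most of it, and between 1.28 and 3.10 CPM elsewhere. Their part in the differences below was not tested. Because each library holds a bulk sample, fewer oocytes and less RNA per oocyte cannot be told apart. The labels do not say whether the libraries came from separate animals or culture drops, so the p-values refer to the spread of these libraries, some of which may be technical.

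The level of the enzymes' transcripts differed widely between genes and little between the control and metformin libraries. Of the 31 genes tested with edgeR's quasi-likelihood test, 0 were called at an adjusted p under 0.05, against 5 of all 12793 genes tested (0.0391%). The edgeR fit gave 1 member an unadjusted p under 0.05, Ehmt1, beside 192 of all genes (1.5%). By limma-voom, by limma on log2 FPKM and by DESeq2 the count of members called was also 0. The limma fits gave Ehmt1 alone an unadjusted p under 0.05, and DESeq2 gave it to 2 members, Ehmt1 and Kdm6a. In 3 members, Ehmt1, Ehmt2 and Hdac3, every metformin library lay above every control library in CPM, compared with 363 of all genes tested (2.84%). Non-overlap in either direction was seen in those 3 members and in 720 of all genes (5.63%). Of the 3, Ehmt2 reached the level of the filter on low counts in 3 metformin libraries and only 1 control library. Its place in this count is therefore partly built into its being tested. Fitted changes were above 0 in 16 members and below 0 in 15. Their median log2 fold change was 0.0039, that of all genes 0.01, and 28 of the 31 lay within 0.3 of no change on the log2 scale. The bounds of the members' range were Kdm6a at -0.50 and Ehmt2 at 0.76.

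**Figure D1:**
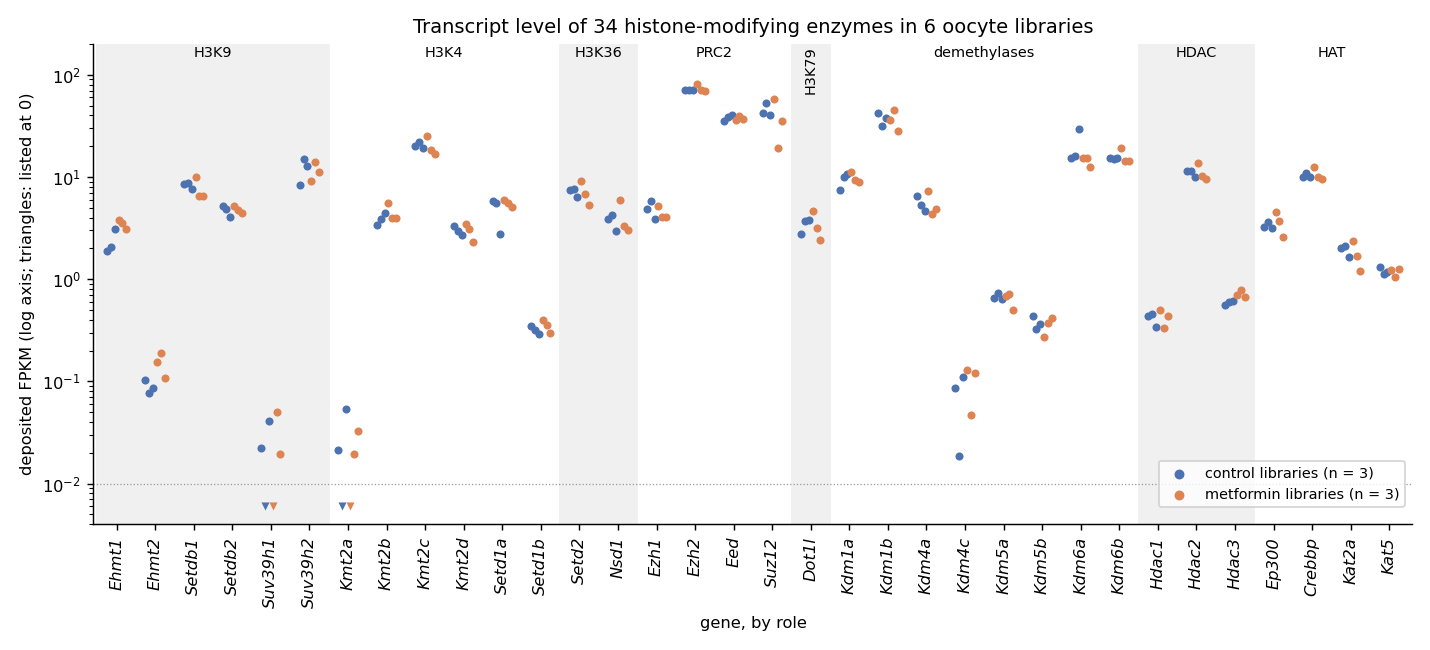
Deposited FPKM (reads scaled to gene length and library size, log axis) of the 34 genes in 3 control and 3 metformin libraries, 1 point per library, grouped by role; triangles at the bottom are libraries in which the gene is listed at 0. Levels run from Kmt2a and Suv39h1, at about 0.02 FPKM on average, to Ezh2 at 72.3, while the points of both groups lie close together for most genes.

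The plot of FPKM by gene shows the order of the levels. FPKM is a value per length, so it allows genes to be set beside each other approximately. The lengths behind it count overlapping exons repeatedly and exceeded the members' merged exon lengths by 1.045- to 2.198-fold, depending on the gene. The ratio of Hdac2 to Hdac1 was 26.7 by FPKM and 19.9 per kilobase of merged exons. For Setdb1 to Setdb2 the values were 1.67 and 1.38. The highest of the 34 was Ezh2, the main catalytic subunit of PRC2, which methylates H3K27. It stood at 70.5, 70.8 and 70.7 FPKM in controls 1 to 3 and at 81.2, 71.3 and 69.5 FPKM in metformin 1 to 3. By FPKM only metformin 1 stood apart from this narrow band, and the groups overlapped. In CPM Ezh2 was at 623.6, 625.1 and 668.7 in controls and at 693.2, 645.4 and 681.8 in metformin libraries. The groups overlapped there too, but metformin 1 stood less apart, and metformin 3, lowest by FPKM, was above every control library.

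The other PRC2 core subunits came next. Suz12, which holds the complex together, was at 42.2, 52.7 and 40.8 FPKM in controls and at 57.6, 19.4 and 35.3 FPKM in metformin libraries. Its lowest value was metformin 2 and its highest metformin 1, so both extremes fell in the same group. Eed, the subunit that binds methylated H3K27, was at 35.3, 38.4 and 40.7 FPKM in controls and at 36.4, 39.2 and 37.3 FPKM in metformin libraries. The lowest Ezh2 library was above the highest Suz12 library, whereas Suz12 and Eed overlapped. Ezh1, the alternative catalytic subunit, had a mean of 4.65 FPKM over the 6 libraries, and Ezh2 exceeded it 15.7-fold (geometric mean of the ratio within a library, range 12.3 to 18.3).

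In 2 of the 3 related pairs of H3K9 methyltransferases, 1 gene held nearly all of the counted reads. Suv39h2, one of the enzymes that trimethylate H3K9 at pericentric heterochromatin, had a mean of 11.7 FPKM. Its relative Suv39h1 had 2, 0 and 4 reads in controls and 0, 5 and 2 reads in metformin libraries. Pooled over the libraries, Suv39h2 had 5731 counts and Suv39h1 had 13, a ratio of 527 per kilobase of exon (95% exact interval 308 to 990, counting error only). Suv39h1 shares 767 exonic bases with the antisense gene Gm14820, which held 217 to 320 counts, and the reads of an unstranded library cannot be assigned to one strand. Setdb1, which silences retroelements together with Trim28, was at 7.98 FPKM and Setdb2 at 4.75 FPKM on average.

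Ehmt1 and Ehmt2 encode GLP and G9a, which form a heterodimer that mono- and dimethylates H3K9. Ehmt1 had a mean of 2.91 FPKM and Ehmt2 a mean of 0.119 FPKM, so the mRNA of the partners differed 24.7-fold (range over libraries 18.1 to 36.4). Ehmt2 passed the filter through the metformin libraries: its level of 0.999 CPM was reached in 3 metformin libraries and in 1 control library. Its difference between groups is therefore partly built into its being tested.

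Among the H3K4 methyltransferases, Kmt2c had the highest level, a mean of 20.3 FPKM. It encodes an enhancer-associated monomethyltransferase, and its relative Kmt2d had a mean of 2.98 FPKM, 0.147 of the Kmt2c level. Kmt2b, known to be required in the growing oocyte, was at 4.18 FPKM. Its relative Kmt2a had 4, 0 and 11 reads in controls and 0, 4 and 7 in metformin libraries. Pooled, Kmt2b had 3077 counts and Kmt2a 26, a ratio of 206 per kilobase (95% exact interval 140 to 315, counting error only). Kmt2a was listed at 0 in 1 library of each group and was not tested. Setd1a, a catalytic subunit of the COMPASS complex that trimethylates H3K4, was at 5.12 FPKM and its alternative Setd1b at 0.334 FPKM. For each of these 3 pairs, the order of the partners was the same in all libraries where both had reads.

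The H3K36 methyltransferase Setd2, which follows elongating RNA polymerase II, was at 7.16 FPKM, and Nsd1, which dimethylates H3K36, was at 3.91 FPKM. Dot1l, the H3K79 methyltransferase, was at 3.42 FPKM.

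Of the demethylases, Kdm1b had the highest level, with 42.1, 31.5 and 37.5 FPKM in controls and 36.1, 45.0 and 28.1 FPKM in metformin libraries. It removes H3K4 methylation in growing oocytes, a step needed there for DNA methylation at maternally imprinted genes. Its relative Kdm1a, a subunit of CoREST complexes, was at 9.58 FPKM, and Kdm1b exceeded it 3.81-fold (range 3.15 to 5.61). Kdm1b shares 505 exonic bases with Dek on the opposite strand, 9.19% of its exons, and Dek held 3442 to 4385 counts. The H3K27 demethylases Kdm6a and Kdm6b stood at 17.4 and 15.5 FPKM. How far they differed depended on the length used: the Kdm6b to Kdm6a ratio was 0.926 by FPKM and 0.674 per kilobase of merged exons. It also depended on control 3, where Kdm6a was at 29.5 FPKM against 12.5 to 16.1 FPKM in the other libraries. Without control 3 the log2 ratio by FPKM went from -0.11 to 0.056.

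The remaining demethylases were lower. Kdm4a, which acts on H3K9 and H3K36, was at 5.52 FPKM. Its relative Kdm4c had 5, 1 and 7 reads in controls and 8, 3 and 8 in metformin libraries, a mean of 0.0849 FPKM, and was not tested. Kdm5a and Kdm5b, which remove H3K4 trimethylation, were at 0.657 and 0.364 FPKM.

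Hdac2 held most of the counted deacetylase reads, at a mean of 11.1 FPKM. Hdac1, which encodes a closely related deacetylase of the same complexes, was at 0.416 FPKM, and Hdac3, the deacetylase of the NCoR and SMRT corepressors, was at 0.651 FPKM. Of the acetyltransferases, Crebbp was at 10.5 and its close relative Ep300 at 3.46 FPKM. Kat2a, the catalytic subunit of SAGA, was at 1.83 FPKM, and Kat5, that of the TIP60 complex, at 1.19 FPKM.

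The count of Hdac1 has a limit set by sequence, which is why the next stretch is shown. Hdac1 (chr4:129516104-129542713, minus strand, GRCm38) has an annotated processed pseudogene, Gm10093 (chr17:78491582-78493025, plus strand), whose transcript aligns with 1444 of the 1449 coding bases at 99.38% identity. Only 9 positions differ, 5 of them in the 60 coding bases below, which are the window with the most differences. Bases 423 to 482 of each, counted from the start codon and from the first base of the pseudogene transcript, are printed 5′ to 3′ from the GENCODE M21 transcripts, with differing bases in capitals.
Hdac1: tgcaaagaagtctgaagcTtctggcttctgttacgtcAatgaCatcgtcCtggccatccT
Gm10093: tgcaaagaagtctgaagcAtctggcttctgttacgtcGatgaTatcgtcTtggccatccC
The longest stretch without a difference was 450 bases, and 90.1% of the alignment lay in identical stretches of at least 100 bases. A read inside such a stretch fits both loci. Hdac1 had 24, 23 and 20 counts in controls and 29, 20 and 27 in metformin libraries. Gm10093 had 37, 26 and 27 counts in controls and 38, 29 and 24 in metformin libraries, as many as Hdac1 or more in all but 1 library. How reads that match both were assigned is not given in the sources used here, so the low level of Hdac1 is uncertain. A further locus, AC125456.1, matched Hdac1 at 96.28% identity over 1450 bases and held 0 to 2 counts per library. Over all libraries Hdac1 held 143 counts and Hdac2 3690. Adding the counted reads of Gm10093 to Hdac1 would leave it below Hdac2. This sets no upper bound on Hdac1, because any reads left uncounted for matching both loci would be in neither count.

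The comparison of metformin with control asked whether the stored transcripts of these enzymes differ after maturation with the drug. The smallest p was that of Ehmt1 (chr2:24789928-24919614, minus strand). It stood at 27.3, 30.1 and 48.6 CPM in controls and at 54.1, 52.8 and 49.9 CPM in metformin libraries. All metformin libraries were higher in CPM, but control 3 lay just below them. In deposited FPKM the groups overlapped, with control 3 at 3.097 and metformin 3 at 3.071. The mean of controls was 35.3 ± 11.5 CPM against 52.3 ± 2.13 CPM in metformin libraries (SD, n = 3 each). The edgeR log2 fold change was 0.56 (SE 0.21, range of 2 SE on either side 0.14 to 0.99, unadjusted p = 0.0207), a 1.48-fold higher level that was not called (adjusted p = 1.00). Without control 3 it was 0.87 (unadjusted p = 0.000625 and adjusted p = 0.592 by edgeR). Without control 1 it was 0.41 (unadjusted p = 0.102 by edgeR), and without control 2 it was 0.46 (unadjusted p = 0.0828 by edgeR).

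Ehmt2 (chr17:34898469-34914052, plus strand) had 10, 7 and 9 counts in controls and 16, 20 and 12 in metformin libraries. The groups did not overlap, but every library had at most 20 reads. In edgeR the log2 fold change was 0.76 (SE 0.39, range of 2 SE on either side -0.022 to 1.54, unadjusted p = 0.0767). On the log2(FPKM + 1) scale, where a gene this low moves little, limma gave a difference of 0.079. The ratio of Ehmt1 to Ehmt2 within a library was 4.70 ± 0.504 on the log2 scale in controls and 4.56 ± 0.306 in metformin libraries (SD, n = 3 each), a difference below the spread (exact permutation test, two-sided p = 0.8).

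Hdac3 (chromosome 18, minus strand) was at 3.89, 4.18 and 4.55 CPM in controls and at 4.66, 5.60 and 5.12 CPM in metformin libraries. The lowest metformin library was only slightly above the highest control. Its edgeR log2 fold change was 0.28 (SE 0.24, unadjusted p = 0.253), so the gap was of the order of its error.

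**Figure D2:**
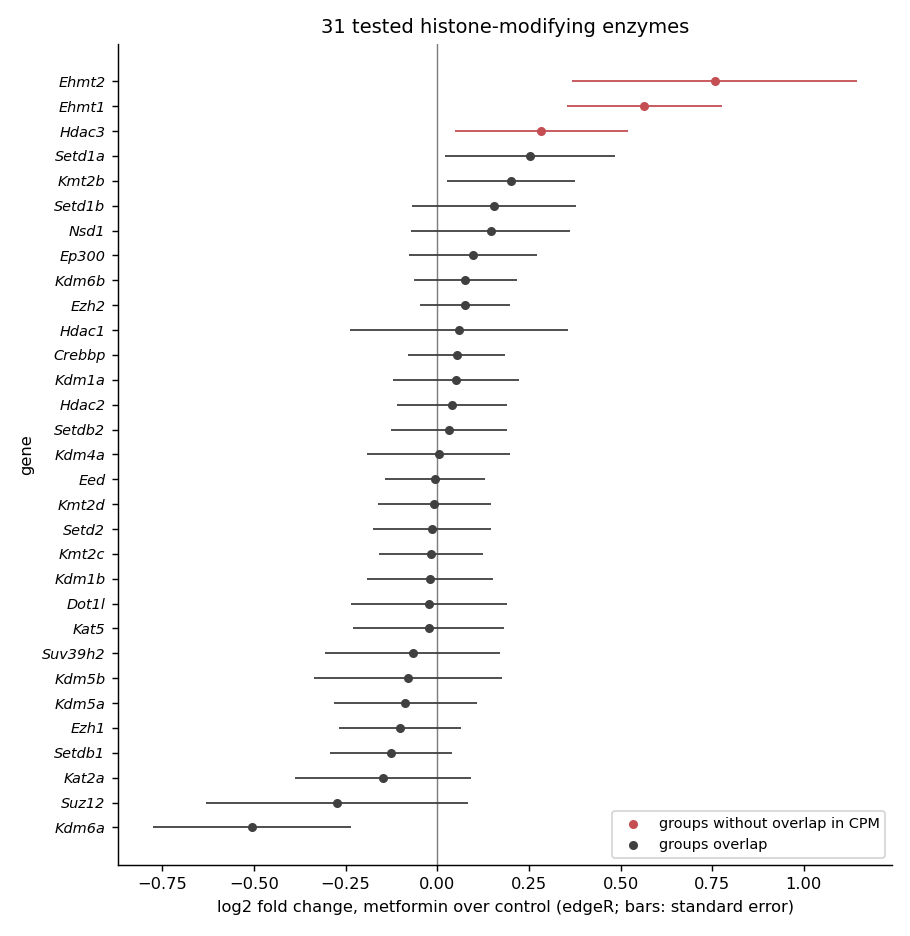
The edgeR log2 fold change of metformin over control (points) with its standard error (bars) for the 31 genes tested, in order of size; red marks genes whose groups did not overlap in CPM. Most points lie within 1 standard error of 0; Ehmt1 and Ehmt2 at the top and Kdm6a at the bottom lie farthest out, and none was called.

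In the other direction, the largest fitted difference was in Kdm6a (chrX:18162575-18279936, plus strand), the X-linked H3K27 demethylase UTX. It stood at 180.0, 189.2 and 370.9 CPM in controls and at 174.1, 184.9 and 162.7 CPM in metformin libraries. Control 3 was 1.96-fold above the next highest library, and the remaining 5 lay close together. By edgeR the log2 fold change was -0.50 (SE 0.27, unadjusted p = 0.099), and without control 3 it was -0.085 (unadjusted p = 0.567). Without control 1 or control 2, the unadjusted edgeR p was 0.0202 or 0.0385, and by DESeq2 on all libraries it was 0.048; adjusted, none of these was called.

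Suz12 (chr11:79993106-80034123, plus strand) was at 333.2, 415.6 and 345.1 CPM in controls and at 439.1, 156.6 and 309.4 CPM in metformin libraries. The low library was metformin 2, while metformin 1 was the highest of all. The edgeR log2 fold change was -0.27 (SE 0.36, unadjusted p = 0.473), and without metformin 2 it turned to 0.037. Setdb1 (chr3:95323525-95357202, minus strand) was at 72.2, 73.5 and 68.4 CPM in controls and at 80.2, 55.6 and 60.3 CPM in metformin libraries. The metformin values spanned the control values on both sides, and the edgeR log2 fold change was -0.13 (SE 0.17, unadjusted p = 0.46). It was -0.30 without metformin 1 and -0.024 without metformin 2. Setdb1 matches the noncoding gene Gm4349 at 99.38% identity over 645 bases. That gene held 80, 107 and 90 counts in controls and 144, 86 and 84 in metformin libraries. The assignment of reads fitting both genes is not given in the sources used here, and their part in these values was not tested.

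Setd1a (chr7:127776670-127800122, plus strand) showed the reverse of Kdm6a. It was at 45.4, 43.9 and 22.9 CPM in controls and at 44.6, 44.6 and 44.4 CPM in metformin libraries. Control 3 was 1.91-fold below the next lowest library, and the other 5 were nearly equal. The edgeR log2 fold change of 0.25 (SE 0.23, unadjusted p = 0.298) became -0.0027 without control 3. The gene shares 51.85% of its exonic bases with Gm49388 on the same strand, and that gene held 20, 0 and 2 counts in controls and 0, 0 and 3 in metformin libraries. How reads shared by both were assigned is not given in the sources used here, and their part in the value of control 3 was not tested.

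**Figure D3:**
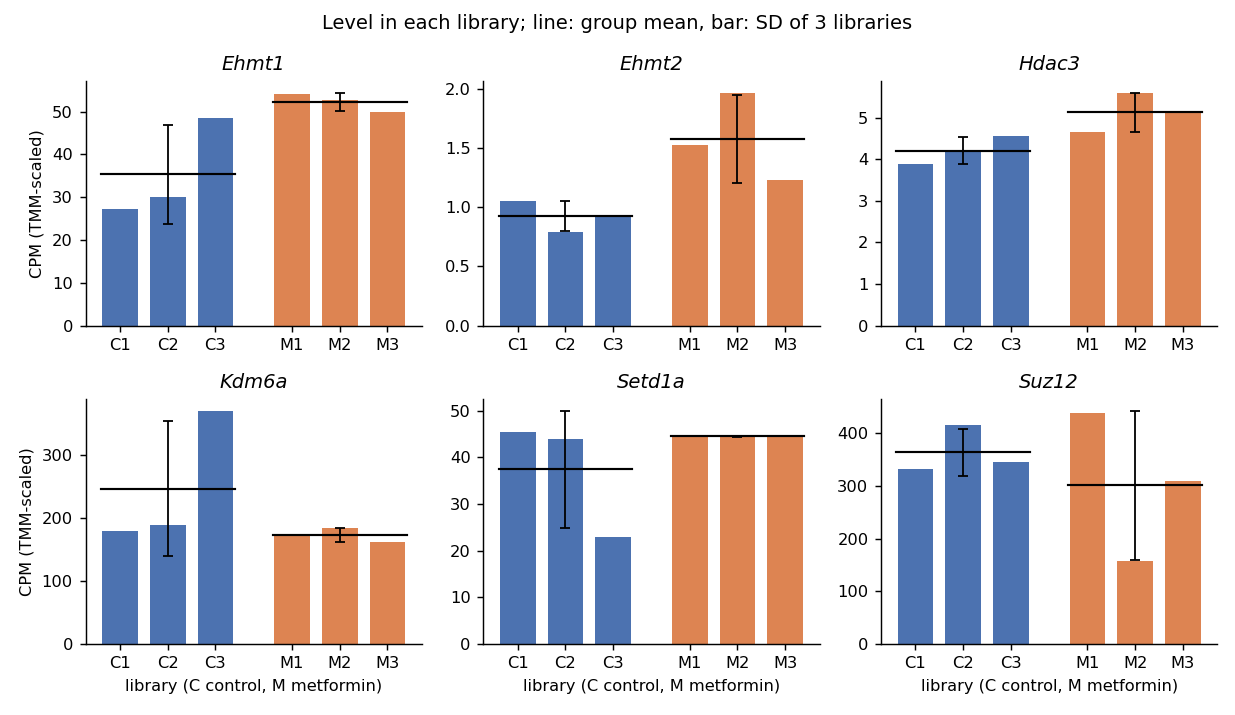
CPM in each library (bars; C control, M metformin) for 6 of the enzymes, with the group mean (line) and the SD of 3 libraries (error bar); each panel has its own scale from 0. In the upper row the metformin bars are all above the control bars; in the lower row a single library, control 3 for Kdm6a and Setd1a and metformin 2 for Suz12, stands apart from the other 5.

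The panels of single genes show groups that do not overlap in the upper row, none of them called and with control 3 close to the metformin libraries for Ehmt1, and a single library far from the rest in the lower row. The latter pattern was counted, as a description chosen after the values were seen, in genes with a mean of at least 10 CPM. A library counted as standing apart when it was at least 1.5-fold above or below the nearest of the other 5. This was the case for Kdm6a, Setd1a and Suz12 among 24 members (12.5%), for 7 of 69 other genes of the pathway (10.1%) and for 317 of 6668 genes in all (4.8%). In the members, the libraries concerned were control 3 for 2 genes and metformin 2 for 1. Among the other genes of the pathway, control 3 was low for Jarid2, a PRC2 cofactor, at 78.1 CPM against 139.8 to 185.8 CPM in the others, and for Ing5. Metformin 2 was low for the TIP60 complex gene Ep400, at 52.3 CPM against 119.6 to 141.2 CPM, and for Kmt2e, and high for Gatad2b. The remaining 2 genes departed in other libraries: Rcor1, a CoREST subunit gene, was 2.3-fold below the next lowest library in control 1, and Cxxc1 was 1.65-fold above the next highest in metformin 1.

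Variation among the 6 libraries was otherwise small. The coefficient of variation over all libraries had a median of 13.5% in the 24 members of at least 10 CPM and of 13.9% in the 6668 genes of that level. It was highest for Kdm6a at 37.7%, Suz12 at 30.0% and Ehmt1 at 27.1%, and lowest for Ezh2 at 4.48%. Ezh2 had an edgeR log2 fold change of 0.075 (SE 0.12), the smallest error among the members.

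One library tended to be the highest. Metformin 1 held the highest value of 17 of the 31 tested members, whereas it was the highest library for 20.9% of all genes tested. The counts for the other libraries were 2, 2 and 3 for controls 1 to 3, 4 for metformin 2 and 3 for metformin 3. Nsd1 is an example: it stood at 93.0, 101.5 and 75.1 CPM in controls and at 136.6, 81.2 and 80.4 CPM in metformin libraries, and without metformin 1 its log2 fold change went from 0.15 to -0.15. Of the 9 tested members with more than 10000 exonic bases, metformin 1 was highest for 7, and of the 22 shorter ones for 10.

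Across all genes of at least 10 CPM, the 840 with more than 10000 exonic bases had a median deviation of 0.14 (log2 CPM) in metformin 1 and of -0.084 in metformin 3, measured from each gene's mean over the 6 libraries. The 2064 genes under 3000 bases deviated the other way, by -0.10 and 0.14. The 7 long members of that level deviated by 0.24 in metformin 1 and by -0.24 in metformin 3, and the 17 shorter ones by 0.16 and 0.007. Long genes were thus high in one metformin library and low in another, within the same group. The part of gene length in the members' values was not tested.

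**Figure D4:**
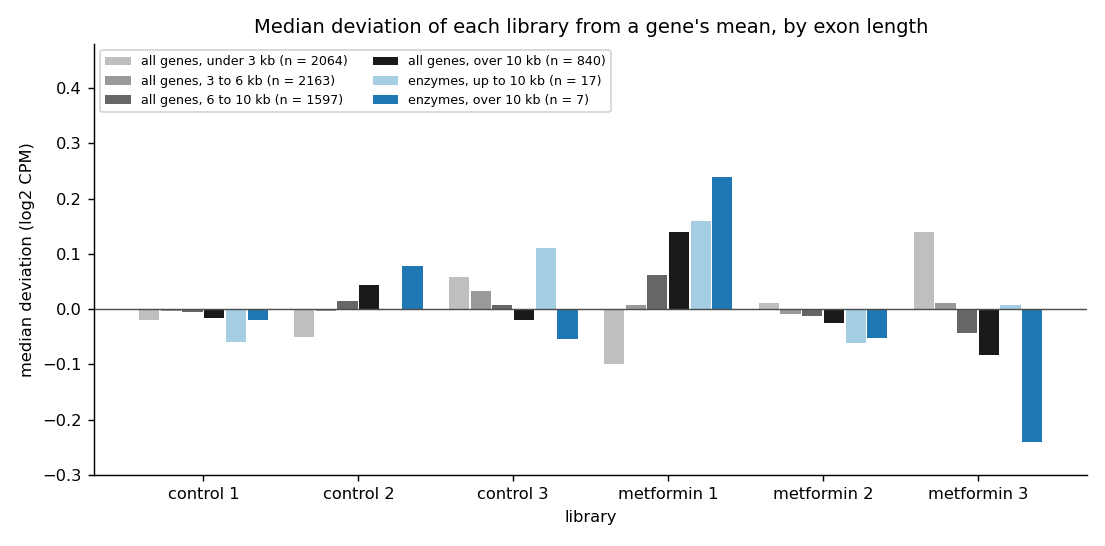
Median deviation of each library from a gene's mean over the 6 libraries (log2 CPM), for all genes of at least 10 CPM in 4 classes of merged exon length (grey to black) and for the enzymes up to and over 10 kb (blue). The classes spread in opposite order in metformin 1 and metformin 3; there the enzymes over 10 kb reach 0.24 and -0.24.

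Summed over the 34 genes, the transcripts made up 3710 ± 179 CPM in controls and 3642 ± 323 CPM in metformin libraries (SD, n = 3 each), and Ezh2, Kmt2c, Kdm1b, Suz12 and Eed held 57.7% of the sum. The difference was below the spread (exact permutation test, two-sided p = 0.8; 3 against 3 libraries cannot give less than 0.1). Within the 8 classes by role the sums overlapped as well. PRC2 summed to 1321 ± 63.3 CPM in controls and 1287 ± 156 CPM in metformin libraries, with 50.3% from Ezh2. The demethylases summed to 853 ± 144 and 783 ± 71.4 CPM, and without control 3 the log2 ratio of metformin to control turned from -0.12 to 0.018. The small ratios of the other 7 classes also changed sign when some library was left out. H3K9 methyltransferases summed to 237 ± 31.9 and 245 ± 9.62 CPM, and H3K4 methyltransferases to 687 ± 22.0 and 695 ± 95.2 CPM. The 8 exact permutation p-values, two-sided, ran from 0.6 to 1.0, and each was 1.0 after Benjamini-Hochberg adjustment over the classes.

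Ratios between related enzymes in the same library do not depend on the scaling between libraries. For 11 of 13 pairs both genes had reads in every library. In 8 of the 11, the log2 ratio kept its sign and its size was over 1 in every library: above 0 for Kdm4a over Kdm4c, Hdac2 over Hdac1, Ehmt1 over Ehmt2, Ezh2 over Ezh1, Kdm1b over Kdm1a and Crebbp over Ep300, and below 0 for Kmt2d over Kmt2c and Setd1b over Setd1a. The groups overlapped for all 11. The largest difference in a well-counted pair was Kdm6b over Kdm6a, at -0.36 ± 0.515 in controls and 0.13 ± 0.215 in metformin libraries (log2 scale, SD, n = 3 each). It rested on control 3, at -0.95, and its exact permutation p was 0.2 (two-sided; 1.0 after Benjamini-Hochberg adjustment over the 11 pairs).

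**Figure D5:**
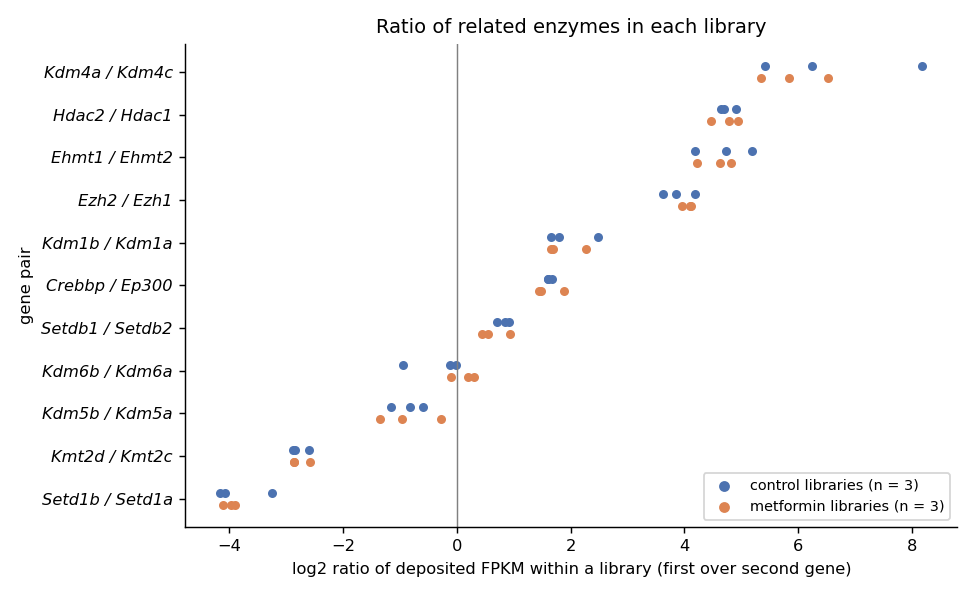
Log2 ratio of deposited FPKM of 2 related enzymes within each library, control libraries above and metformin libraries below each line of the pair. Ratios range from about -4 for Setd1b over Setd1a to 8.18 for Kdm4a over Kdm4c, and the points of both groups overlap for every pair. The value of 8.18 is that of control 2, where Kdm4c had 1 read.

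The enzymes act with partner subunits and next to other enzymes and readers, for which 114 further genes were listed. Of these, 113 were found and 90 tested: 50 had fitted changes above 0 and 40 below, with a median log2 fold change of 0.020. By edgeR and by limma-voom, 0 were called and 0 had an unadjusted p under 0.05, and by DESeq2 0 were called and 1, the NuRD gene Gatad2b, had an unadjusted p under 0.05. In 3 of the 90 tested genes the groups did not overlap, beside 5.63% of all genes tested. Phf19, a PRC2 accessory gene, was lower in metformin libraries (2.68 ± 0.601 against 4.02 ± 0.846 CPM), whereas Mbd3 of the NuRD complex (6.39 ± 0.672 against 4.92 ± 0.532 CPM) and the heterochromatin protein gene Cbx1 (142 ± 7.45 against 120.2 ± 14.5 CPM; SD, n = 3 for each) were higher. By edgeR their unadjusted p was 0.0726, 0.127 and 0.113.

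Several partners had higher FPKM than the enzymes they serve. Rbbp7, a histone-binding subunit of PRC2 and of deacetylase complexes, was at 586 FPKM, compared with 2.62 FPKM for its relative Rbbp4. Dpy30, a core subunit of the H3K4 methyltransferase complexes, was at 406 FPKM, while its companion Ash2l was at 0.628 FPKM. Sin3a, the scaffold that carries Hdac1 and Hdac2, was at 52.4 FPKM, and Hat1, which acetylates newly made histone H4, at 74.9 FPKM. Of the readers, Phf13 was at 69.2 and Uhrf1 at 36.5 FPKM. These genes were chosen after their levels were seen.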

How the data were processed

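RNA from 3 control and 3 metformin oocyte samples was sequenced after library construction with the SMART-Seq HT kit, per the labels' protocols. This kit amplifies poly(A) cDNA by PCR without keeping strand or molecular identifiers, so counting intervals cover counting error only. Levels given here are those of RNA captured by its poly(A) tail, and tail length was not measured. Tools listed in the submitters' processing notes are TopHat2 2.0.6 and CASAVA 1.8, with mm10 as the build. Which program counted reads, and on which annotation, is not given in the sources used here. One deposited table holds, per the file headers, the authors' raw read counts and FPKM values of every gene in each library. The lengths behind the FPKM values matched, within 1%, the sum of all distinct annotated exons, overlapping ones counted repeatedly, for 97.6% of 4311 well-counted genes and for 33 of the 34 members (Eed differed 1.064-fold). They exceeded the members' merged exon lengths 1.045- to 2.198-fold. Ranks of the members by the 2 lengths differed by at most 3 places.

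The members and gene lists were chosen with earlier results of these data known. All genes were fitted with edgeR 4.0.16 (R 4.3.3): TMM scaling, filterByExpr with a minimum count of 10, robust quasi-likelihood fit, group as the only term, Benjamini-Hochberg adjustment over all genes tested, threshold 0.05. SE is the log2 fold change divided by the square root of F. DESeq2 1.42.0, limma 3.58.1 (log2 of FPKM plus 0.1 or 1) and other scalings and filters were run as alternatives, as was leaving out each library. Scripts were tested on simulated data. Role class sums and within-library ratios were compared by exact permutation tests. Near-identical transcripts (at least 95% identity over 400 bases) were found with BLAST 2.17.0.

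Values per library are given for the 3 members of highest level, those with the 3 smallest p in each direction, those whose groups did not overlap, and the 3 with the largest coefficient of variation among genes of at least 10 CPM. The 3 lowest members and Ehmt2 are given as counts, and both genes of each pair as FPKM. Setd1a and Nsd1 were added after their values were seen, as were the other genes of the pathway, of which the rule named none. Kdm1b, Hdac1 and some genes that share sequence with a member were also given per library outside this rule.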

Additional observations from a re-analysis of the deposited data

How the results depend on the processing

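The count of members called was 0 under all 18 alternatives of the whole-table test, at adjusted p-values down to 0.592 (Ehmt1 without control 3). The count over all genes was 5 and became 8 by DESeq2 and 3 by limma on log2(FPKM + 0.1) and on log2(FPKM + 1); with 1 library left out it ran from 5 to 12. In 8 members, Ehmt1, Ehmt2, Setdb1, Kmt2b, Setd1b, Ezh2, Kdm6a and Hdac3, the fitted direction was the same under every alternative run for them. With 1 library left out, Setdb1 ranged from -0.30 to -0.024, Kmt2b from 0.082 to 0.34, Kdm6a from -0.69 to -0.085 and Ehmt1 from 0.41 to 0.87. The other 23 changed sign when some library was left out. Their lowest and highest log2 fold changes with 1 library left out were -0.037 and 0.095 for Setdb2, -0.29 and 0.10 for Suv39h2, -0.15 and 0.051 for Kmt2c, -0.086 and 0.097 for Kmt2d, -0.0027 and 0.41 for Setd1a, -0.18 and 0.11 for Setd2, and -0.15 and 0.28 for Nsd1. They were -0.21 and 0.024 for Ezh1, -0.077 and 0.080 for Eed, -0.65 and 0.037 for Suz12, and -0.24 and 0.13 for Dot1l. Among demethylases they were -0.105 and 0.20 for Kdm1a, -0.20 and 0.094 for Kdm1b, -0.20 and 0.15 for Kdm4a, -0.19 and 0.015 for Kdm5a, -0.28 and 0.11 for Kdm5b, and -0.019 and 0.15 for Kdm6b. They were -0.037 and 0.20 for Hdac1, -0.075 and 0.098 for Hdac2, -0.050 and 0.25 for Ep300, -0.028 and 0.10 for Crebbp, -0.36 and 0.019 for Kat2a, and -0.13 and 0.052 for Kat5. Kdm4a, at 0.0039, also turned to -0.0063 by upper-quartile scaling, -0.0017 by library size, -0.0033 without a filter, -0.0025 with a filter at a mean of 10 CPM, -0.014 by limma-voom, -0.026 and -0.020 by limma on FPKM with 0.1 and 1 added, and -0.013 with the replicate block.

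The log2 ratio of metformin to control of the role class sums ranged, with 1 library left out, from -0.062 to 0.10 for H3K9, -0.10 to 0.082 for H3K4, -0.17 to 0.18 for H3K36, -0.12 to 0.055 for PRC2, and -0.24 to 0.13 for H3K79. It ranged from -0.22 to 0.018 for demethylases, -0.042 to 0.11 for deacetylases and -0.042 to 0.11 for acetyltransferases. The log2 level ratio of Kdm6b to Kdm6a ranged from -0.20 to 0.056. The cause was not tested in any of these.

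With the replicate number as a replicate block, 7 genes and 0 members were called, and Ehmt1 had a log2 fold change of 0.61 (unadjusted p = 0.00909 by edgeR). The labels do not say that equal numbers mark a shared animal or day. Deviations from the group means correlated between libraries of equal number at 0.15, 0.042 and 0.22 for numbers 1 to 3 (Pearson's r across genes, which are not independent), each the highest of its control library's 3 correlations except for control 2, which correlated best with metformin 1 at 0.05. Depth limits Ehmt2, Suv39h1, Kmt2a and Kdm4c most, with 74, 13, 26 and 32 reads in all.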
